A study of Mus musculus with 6 samples.

Results

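The genes described here encode the NF-κB transcription factors and proteins that restrain them or alter what they do. They are 5 Rel family subunits (Nfkb1, Nfkb2, Rel, Rela and Relb) and 5 genes grouped as inhibitors (Nfkbia, Nfkbib, Nfkbiz, Bcl3 and Tnfaip3). The inhibitor group includes Nfkbiz and Bcl3, whose nuclear proteins need not restrain the dimers. All 10 were chosen by symbol, with earlier results of these data known, and each matched 1 Ensembl identifier among the 21553 genes with values. Of the 10, 9 passed the filter on low counts, as did 15895 genes in all; Bcl3 did not. The cells were hippocampal neurons from C57bl/6 mouse embryos at stage E16.5, kept in vitro for 10 days, in a study of an activity-dependent splicing network. The 3 groups were untreated neurons, neurons in 55 mM KCl for 0.5 h and neurons in 55 mM KCl for 3 h, with 2 libraries each. Raised KCl depolarises neurons, and the comparisons ask how these genes stood early and late after depolarisation. The duplicates are described as biological with no word on whether they came from separate cultures or litters, and the p-values cover only the spread between them. No transgene or deletion is named for any group, and both KCl groups are compared with the same untreated libraries.

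NF-κB proteins act as dimers of Rel family subunits. In resting cells the IκB proteins hold most dimers in the cytoplasm; IκB kinases mark IκB for destruction, the dimers enter the nucleus, and among the genes they switch on are those of IκB proteins and of the subunits themselves, which makes the pathway a feedback loop. In the brain the pathway is best known in glia during inflammation, and in neurons it has been linked to synaptic activity and survival.

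The libraries held 98882007 to 141865913 counts. As a check of the treatment labels, the activity gene Fos stood at 7.98 and 8.14 cRPKM (a read count scaled to gene length and library size, as the authors deposited it) in the untreated libraries, 236.75 and 222.75 at 0.5 h, and 344.26 and 271.36 at 3 h. Of 6 such activity genes (Fos, Npas4, Arc, Bdnf, Nr4a1 and Egr1) 3 were called higher by edgeR at 0.5 h and 5 at 3 h, all but Egr1. Npas4 missed at 0.5 h with 4.84 and 4.55 cRPKM untreated and 111.3 and 100.76 at 0.5 h (22.3-fold, adjusted p = 0.054 in edgeR). Egr1 missed with 36.0 and 17.23 untreated and 159.54 and 124.83 at 0.5 h (5.26-fold, adjusted p = 0.55), and Bdnf differed by 1.01-fold. Markers of neurons (8 genes) summed to 1380 to 2260 cRPKM and all 8 passed the count filter. Markers of astrocytes (7 genes) summed to 836, 844 and 901 cRPKM in the libraries numbered 1 of the untreated, 0.5 h and 3 h groups, and to 1250, 1390 and 1890 in those numbered 2. Among them Gfap, an astrocyte filament gene, stood at 22.38 to 24.58 cRPKM in the libraries numbered 1 and 307.34 to 474.96 in those numbered 2. Much of the gap between these sums was Gfap. Every other astrocyte marker was also higher in the libraries numbered 2, but by a smaller ratio. In untreated libraries 1 and 2, Slc1a3 stood at 389.87 and 398.06, Gja1 at 128.92 and 134.91, and Aldoc at 216.34 and 322.05. Microglia markers (9 genes, of which 7 passed the filter) summed to only 1.12 to 1.49 cRPKM and endothelial markers (5 genes) to 0.38 to 0.51. The microglia markers that failed the filter, Cx3cr1 and Itgam, stood at no more than 0.01 and 0.02. The highest, Aif1 and Csf1r, stood at 0.52 to 0.83 (41 to 92 counts) and 0.15 to 0.29 (56 to 149 counts). Fibroblast markers (6 genes) summed to 29.2 to 44.1 and oligodendrocyte lineage markers (7 genes) to 194 to 302. Most of the fibroblast sum was Dcn (20.13 to 42.1), which was higher in the libraries numbered 1, while every other fibroblast marker was higher in those numbered 2. Col1a1, Col1a2 and Col3a1 stood at 0.04 to 0.21 in the libraries numbered 1 and 1.47 to 2.71 in those numbered 2. Pdgfrb was called lower at 3 h (log2 change −1.05, adjusted p = 0.017 in edgeR). In RNA from whole cultures, fewer cells of a type and less RNA per cell cannot be told apart.

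In the untreated cultures, whose RNA was not separated by cell type, the messages of the main activating subunit and of 2 classical IκB proteins were the most abundant of the 10. Nfkbia, which encodes IκBα, stood at 12.6 ± 0.48 cRPKM (SD, n = 2), Rela, the subunit with a strong activation domain, at 11.9 ± 0.36, and Nfkbib, which encodes IκBβ, at 8.79 ± 0.61. Nfkb1 (4.27 ± 0.14) and Relb (3.87 ± 0.89) followed and overlapped each other. So did Nfkbiz (2.36 ± 0.67) and Nfkb2 (2.02 ± 0.099). Tnfaip3 (1.41 ± 0.45) and Rel (0.56 ± 0.11) were lowest among the 9, and every other pair of neighbours in this order had libraries that did not overlap. Bcl3, an IκB relative that works in the nucleus, was close to unread, with 0 to 5 counts per library, and was not tested. Among all genes tested, 61.6% had a lower untreated level than Nfkbia, 60.3% than Rela and 18.5% than Rel. The 9 genes tested had 187 (Rel) to 8350 (Rela) counts in each library.

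**Figure D1:**
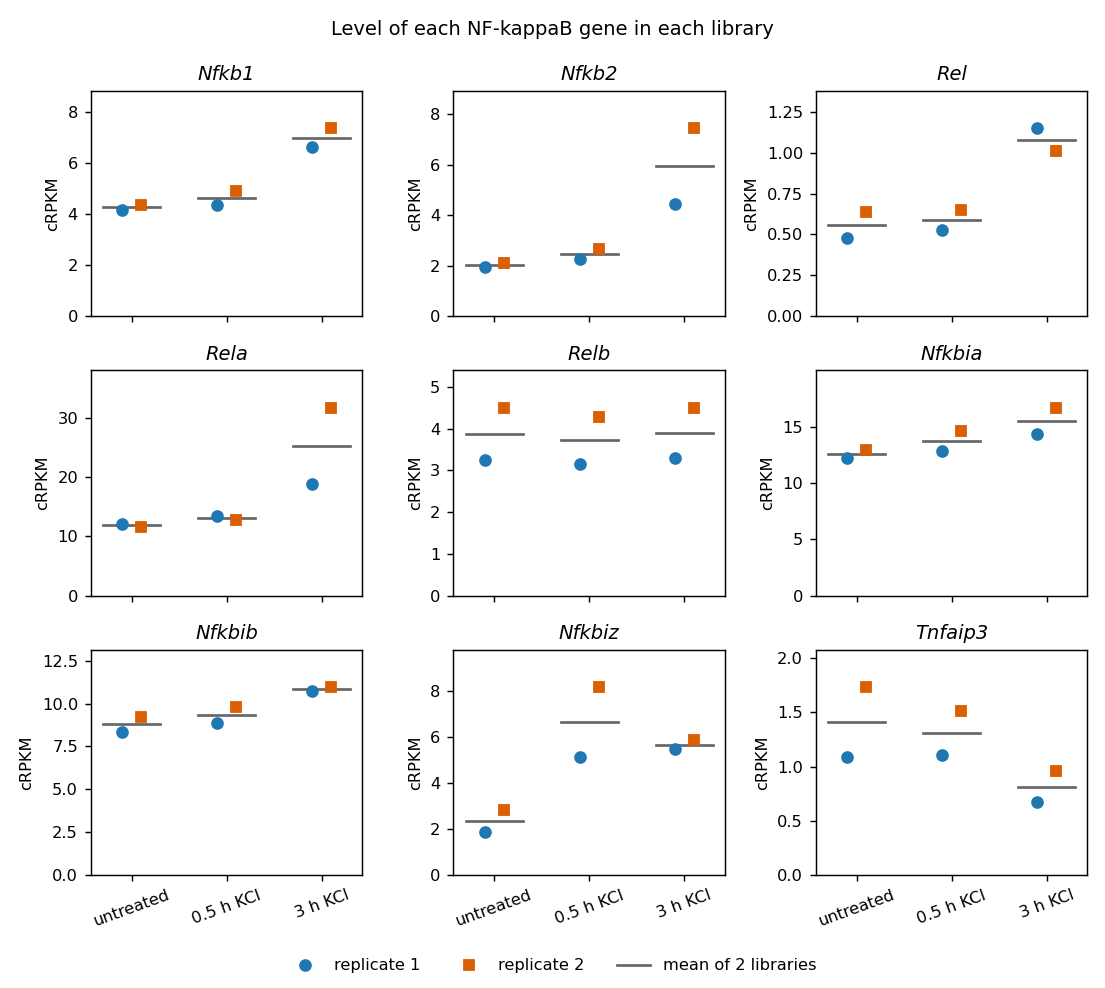
Level of each of the 9 genes that passed the count filter, as cRPKM (vertical axis, from 0, a different scale in each panel) in each library; circles are replicate 1, squares replicate 2 and the line their mean. Nfkb1, Nfkb2, Rel and Rela sit higher in both 3 h libraries than in all others, Nfkbiz sits higher at both times of KCl than in untreated libraries, and Relb sits at 3.16 to 4.50 throughout. Of all genes tested, 24.1% had both 3 h libraries above both untreated ones, and 14.8% had both 0.5 h libraries above them.

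At 3 h of KCl, 4 of the 5 subunit genes rose and Relb did not pass the test. Nfkb2 encodes the precursor of the non-canonical pathway's subunit. It stood at 1.95 and 2.09 cRPKM in the untreated libraries, 2.27 and 2.64 at 0.5 h, and 4.44 and 7.44 at 3 h. Both 3 h libraries lay above the other 4, which lay close together, and the 3 h libraries differed from each other more than any others did. Of all genes tested, 24.1% had both 3 h libraries above both untreated ones in cRPKM. The rise of Nfkb2 over untreated was 3.03-fold. This was a log2 change of 1.60 ± 0.24 (SE, adjusted p = 0.014 in edgeR), the largest among the 9. Rela stood at 12.14 and 11.63 cRPKM untreated, 13.41 and 12.80 at 0.5 h, and 18.75 and 31.66 at 3 h. It too was higher in both 3 h libraries than in any other, by unequal amounts. The log2 change at 3 h was 1.13 ± 0.22 (adjusted p = 0.027), and it was 0.77 without 3 h replicate 2 and 1.42 without 3 h replicate 1 (adjusted p = 0.021 and 0.0088).

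Rel encodes c-Rel, a subunit best known from lymphocytes. Its message was scarce at every time, with 0.48 and 0.64 cRPKM untreated, 0.53 and 0.65 at 0.5 h, and 1.15 and 1.01 at 3 h. The 3 h libraries did not overlap the others, while the untreated and 0.5 h libraries overlapped. Its rise at 3 h was 1.01 ± 0.24 on the log2 scale (adjusted p = 0.045). Nfkb1, which encodes the precursor of the canonical pathway's DNA-binding subunit, stood at 4.17 and 4.37 cRPKM untreated, 4.38 and 4.91 at 0.5 h, and 6.64 and 7.37 at 3 h. This was the steadiest of the rises, with a cRPKM ratio of 1.59 between the libraries numbered 1 and 1.69 between those numbered 2. The edgeR fit, which scales libraries otherwise than cRPKM, gave a log2 change of 0.77 ± 0.10 (adjusted p = 0.011), or 1.70-fold. Relb, which usually pairs with the product of Nfkb2, stood at 3.24 and 4.50, 3.16 and 4.29, and 3.29 and 4.49 cRPKM in the 3 groups. All 3 groups overlapped, with the library numbered 2 higher each time. Its log2 change at 3 h was 0.06 (95% interval −0.54 to 0.65; adjusted p = 0.88), an interval that reaches from a fall to a rise of moderate size.

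The starts of 3 of the rising subunit genes, and that of Nfkbia, are shown because members of this family are textbook targets of the factors they encode. Promoter windows (250 bases before a start to 50 after it) were taken from RefSeq on build GRCm38.p6, a later build than the mm9 of the counts, where 7 of the 10 genes had 10 windows; Nfkb1, Relb and Nfkbiz had none. Capitals mark each match to the κB consensus on either strand; overlapping matches run together.
Nfkb2, chr19:46304487-46304786, plus strand: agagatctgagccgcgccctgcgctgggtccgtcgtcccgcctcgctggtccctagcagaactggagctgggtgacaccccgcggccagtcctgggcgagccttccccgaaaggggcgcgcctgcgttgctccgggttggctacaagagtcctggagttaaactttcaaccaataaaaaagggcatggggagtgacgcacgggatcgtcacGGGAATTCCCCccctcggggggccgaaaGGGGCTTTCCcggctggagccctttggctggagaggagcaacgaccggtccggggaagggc
Rel, chr11:23770920-23771219, minus strand: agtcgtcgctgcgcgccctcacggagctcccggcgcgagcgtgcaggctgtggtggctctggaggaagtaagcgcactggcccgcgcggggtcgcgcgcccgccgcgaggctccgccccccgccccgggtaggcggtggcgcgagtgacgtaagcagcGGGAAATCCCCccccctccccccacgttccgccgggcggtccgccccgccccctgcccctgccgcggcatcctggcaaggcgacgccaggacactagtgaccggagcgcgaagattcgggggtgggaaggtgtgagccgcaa
Rela, chr19:5637291-5637590, plus strand: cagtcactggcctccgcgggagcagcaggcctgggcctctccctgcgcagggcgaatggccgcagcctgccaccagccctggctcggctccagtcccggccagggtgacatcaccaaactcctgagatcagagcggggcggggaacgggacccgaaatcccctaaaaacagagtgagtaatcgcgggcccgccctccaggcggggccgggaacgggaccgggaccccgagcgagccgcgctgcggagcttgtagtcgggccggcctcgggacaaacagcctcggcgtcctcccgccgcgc
Nfkbia, chr12:55492598-55492897, minus strand: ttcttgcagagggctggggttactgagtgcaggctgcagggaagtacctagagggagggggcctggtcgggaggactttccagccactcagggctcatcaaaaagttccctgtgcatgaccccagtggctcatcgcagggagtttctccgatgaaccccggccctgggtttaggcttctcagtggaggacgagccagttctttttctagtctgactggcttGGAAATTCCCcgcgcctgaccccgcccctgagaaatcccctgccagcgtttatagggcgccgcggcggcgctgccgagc
The κB consensus was found in 7 of the 10 member windows, belonging to 5 of 7 genes (Nfkb2, Rel, Nfkbia, Bcl3 and Tnfaip3), and in 8.46% of the 32851 windows of all genes. The other two windows of Nfkb2 overlap each other and share a match, which is thus counted in both. Nfkb2 has matches from −39 to −29 and from −11 to −2 in the window shown, and Rel from −92 to −82, counting back from the base before the start. The windows of Rela and Nfkbib hold no match. Of other motifs searched on both strands, the cAMP response element TGACGTCA and the CArG box of serum response factor were in none of the member windows (1.79% and 1.63% of all windows). The TGACG part of the former was in 5 of the 10 member windows, from 4 genes (20.8% of all windows). The AP-1 motif TGANTCA was in 2 of the 10, from Nfkb2 and Tnfaip3 (7.81% of all windows). A match is a string of letters and not a measured site, and Bcl3 has a match beside its start and 0 to 5 counts in these cultures.

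Of the inhibitor genes, Nfkbiz rose at 3 h and the other 3 that could be tested did not pass. Nfkbiz encodes an inducible nuclear IκB protein that alters which genes the dimers activate. It stood at 1.89 and 2.84 cRPKM untreated, 5.13 and 8.17 at 0.5 h, and 5.48 and 5.88 at 3 h. The libraries at either time of KCl lay above both untreated ones, and those at 0.5 h and 3 h overlapped. Of all genes tested, 14.8% lay above both untreated libraries at 0.5 h and 24.1% at 3 h. The rise of Nfkbiz at 3 h was 2.49-fold (log2 change 1.32 ± 0.27, adjusted p = 0.031 in edgeR). At 0.5 h the fitted difference was as large, 1.47 ± 0.27 on the log2 scale, and the cRPKM ratio was 2.71 between the libraries numbered 1 and 2.88 between those numbered 2. That comparison did not pass (adjusted p = 0.90 in edgeR's quasi-likelihood test across all genes; adjusted p = 8.3e-05 in DESeq2 and 0.21 with replicate number as a block).

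Nfkbia stood at 12.22 and 12.90 cRPKM untreated, 12.85 and 14.61 at 0.5 h, and 14.32 and 16.66 at 3 h, and Nfkbib at 8.36 and 9.22, 8.84 and 9.78, and 10.74 and 10.94. For both genes the 3 h libraries lay just above the untreated ones, as they lay above them for 24.1% of all genes tested. Their log2 differences at 3 h were 0.35 ± 0.10 and 0.36 ± 0.10, with 95% intervals of 0.09 to 0.61 and 0.10 to 0.61 (adjusted p = 0.075 and 0.068). With replicate number as a block both passed (adjusted p = 0.021 and 0.028). Tnfaip3 encodes A20, a ubiquitin-editing enzyme that shuts off signalling to the IκB kinases and is itself a target of NF-κB in many cells. It stood at 1.09 and 1.73 cRPKM untreated, 1.11 and 1.51 at 0.5 h, and 0.67 and 0.96 at 3 h, with both 3 h libraries below all others. In cRPKM, 35.9% of all genes tested had both 3 h libraries below both untreated ones. The log2 difference of Tnfaip3 at 3 h was −0.74 ± 0.29 (95% interval −1.46 to −0.01, adjusted p = 0.14 in edgeR). With the block it was −0.72 ± 0.11 (adjusted p = 0.011).

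**Figure D2:**
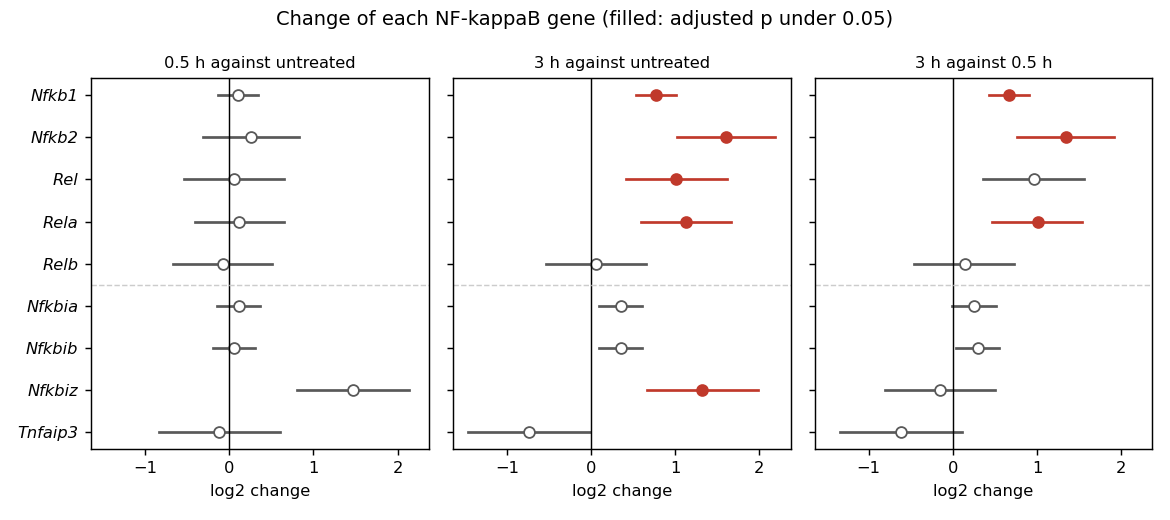
Log2 change of each of the 9 tested genes in the 3 comparisons, with 95% intervals from the fit (bars); filled red points had an adjusted p under 0.05, and the dashed line parts subunits (above) from inhibitors (below). At 3 h, 4 subunits and Nfkbiz are filled, and at 0.5 h Nfkbiz stands at 1.47 without being filled.

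At 3 h, then, 5 of the 9 genes tested were called higher and 0 lower, where 8.71% of all genes tested were higher and 6.84% lower. As the members were chosen with earlier results of these data known, this contrast describes them and does not test the family. With counts scaled by library totals alone, the split over all genes was 1115 higher and 1340 lower in place of 1384 and 1088. The median log2 change was 1.01 over the 5 subunits, 0.36 over the 4 inhibitors and −0.02 over all genes tested. With replicate number as a block, 7 members were higher and Tnfaip3 was lower, against 18.6% of all genes in each direction. In cRPKM, both 3 h libraries lay above both untreated ones for 7 of the 9 members and below them for 1. Over all genes tested these shares were 24.1% and 35.9%. All 5 calls were lost without untreated replicate 1 (adjusted p 0.09 to 0.22) and without untreated replicate 2 (adjusted p 0.089 to 0.17). Those of Rel and Nfkbiz were also lost without either 3 h library, and that of Rel without either 0.5 h library and with library totals (adjusted p = 0.055), while the log2 changes of the 5 genes stayed between 0.71 and 1.89 over the alternatives run.

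After 0.5 h, none of the 9 genes was called by edgeR's quasi-likelihood test, against 0.0377% of all genes higher and 0% lower; 1, Nfkbiz, had an unadjusted p under 0.05. The replicate block gave 0 as well (0.0818% of all genes higher, 0% lower), limma gave 0 and DESeq2 gave 1, Nfkbiz. Apart from Nfkbiz, the log2 differences ran from −0.12 (Tnfaip3) to 0.26 (Nfkb2). Among these 8 genes the 95% interval reached highest for Nfkb2, at 0.83, and lowest for Tnfaip3, at −0.84. At 0.5 h edgeR also did not call Egr1, an activity gene with a 5.26-fold difference (adjusted p = 0.55). A gene not called at this time may thus still have changed.

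Between 0.5 h and 3 h, Nfkb1, Nfkb2 and Rela rose, and no inhibitor gene was called. The log2 changes were 0.67 ± 0.10 for Nfkb1, 1.34 ± 0.23 for Nfkb2 and 1.01 ± 0.22 for Rela (adjusted p = 0.018, 0.027 and 0.042). Rel differed by 0.96 ± 0.24 (adjusted p = 0.06; 0.023 with the block), with its 3 h libraries above both 0.5 h ones. Nfkbiz differed by −0.15 (95% interval −0.80 to 0.50). The 3 calls among 9 compare with 6.39% of all genes higher and 4.87% lower; library totals gave 762 higher and 1037 lower over all genes in place of 1015 and 774. With the block 5 members were higher (Nfkb1, Nfkb2, Rel, Rela and Nfkbib) and Tnfaip3 was lower, against 15.6% of all genes in each direction. The 3 calls were lost without either untreated or either 0.5 h library. That of Rela was also lost in limma (adjusted p = 0.05) and with library totals (0.058).

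The summed level of the 5 subunit messages was 22.0 and 23.2 cRPKM in untreated libraries, 23.8 and 25.3 at 0.5 h, and 34.3 and 52.0 at 3 h. Rela made up most of it in every library, from 50.1% to 60.9%. The share of Nfkb2 was 8.87% and 9.0% untreated and 13.0% and 14.3% at 3 h. That of Relb was 14.7% and 19.4% untreated and 9.60% and 8.64% at 3 h. Neither gene's shares overlapped between these groups. The level of Relb itself was 3.24 and 4.50 cRPKM untreated and 3.29 and 4.49 at 3 h, so its share was lower because the sum was higher. Among the most abundant members, the order of Nfkbia and Rela turned: their cRPKM ratio was 1.01 and 1.11 in the untreated libraries, 0.958 and 1.14 at 0.5 h, and 0.764 and 0.526 at 3 h. The ratio of Nfkbib to Rela was 0.689 and 0.793 untreated and 0.573 and 0.346 at 3 h. These shares and ratios carry no test, and they describe messages, not proteins. The 3 h library numbered 2, in which Rela and Nfkb2 were highest, also had the highest summed astrocyte markers (1890 cRPKM) and the lowest neuron markers (1380); the part of this in the subunit levels was not tested. No astrocyte or neuron marker was called at 3 h (0 of 7 and 0 of 8, with median log2 differences of 0.39 and −0.39; 4 astrocyte markers were called higher and 2 neuron markers lower with the block). From untreated to 3 h, summed astrocyte markers went from 836 to 901 and neuron markers from 2260 to 1830 in the libraries numbered 1, and from 1250 to 1890 and 2180 to 1380 in those numbered 2. Much of the neuron difference in the libraries numbered 1 lay in Tubb3 (606.8 to 253.33), while Snap25 went from 260.32 to 264.98. In those numbered 2 all 8 neuron markers were lower at 3 h, Tubb3 going from 453.49 to 158.09. The cRPKM ratio of 3 h to untreated in these pairs was 2.28 and 3.56 for Nfkb2, 2.40 and 1.58 for Rel, and 1.54 and 2.72 for Rela.

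**Figure D3:**
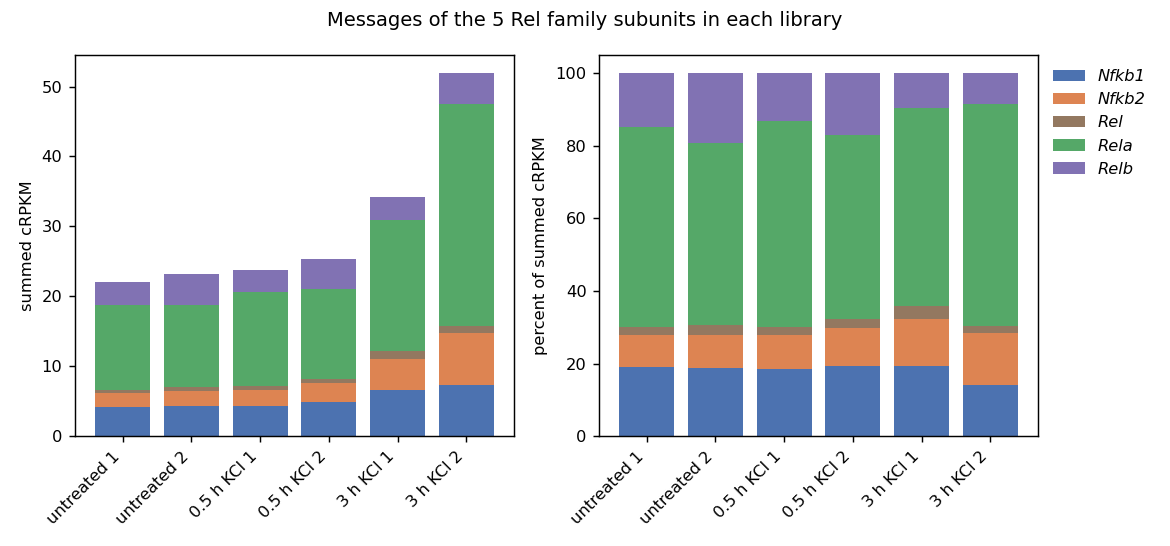
Messages of the 5 subunit genes in each library, stacked as cRPKM (left) and as percent of their sum (right); each bar is 1 library. The sum is 22.0 to 25.3 cRPKM in the untreated and 0.5 h libraries and 34.3 and 52.0 at 3 h. The band of Relb in the right panel is 9.60% and 8.64% at 3 h, where its level is 3.29 and 4.49 cRPKM, against 3.24 and 4.50 untreated.

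The rest of the pathway was read from 6 lists with 85 genes in all, 74 of them tested. At 3 h, 8 were called higher and 2 lower, against 8.71% and 6.84% of all genes, and the median log2 change over the 74 was 0.22. With replicate number as a block 21 were higher and 7 lower, against 18.6% of all genes each way. The count of higher genes without the block is thus close to the share over all genes, and the counts within each list below stand against these same shares. Both other IκB genes on the lists missed the threshold in edgeR. Nfkbid, a nuclear IκB protein, stood at 0.98 and 1.30 cRPKM untreated and 3.10 and 1.58 at 3 h (log2 difference 1.11 ± 0.37, adjusted p = 0.097). DESeq2 called it (adjusted p = 0.017), as did edgeR without 3 h replicate 2 (1.56, adjusted p = 0.029), while the difference was 0.49 without 3 h replicate 1 (adjusted p = 0.20). Nfkbie, another cytoplasmic IκB protein, differed by −0.10 ± 0.15 (adjusted p = 0.68). Of the 10 genes of the IκB kinase complex, related and upstream kinases and their TAB adaptors, 1 fell. Ikbkg, the regulatory subunit of the kinase complex, stood at 8.51 and 9.17 cRPKM untreated and 5.29 and 6.42 at 3 h (−0.54 ± 0.10, adjusted p = 0.023). The list's median was 0.25, and blocking on replicate number called 5 of its genes higher and 2 lower. The genes of the catalytic subunits, Chuk and Ikbkb, named here after their values were seen, were among the 5, with log2 differences of 0.45 and 0.25 (adjusted p = 0.055 and 0.081 without the block). Of 23 tested adaptors and ubiquitin enzymes 2 rose and 1 fell, with a median of 0.23 (6 higher and 2 lower with the block). Ripk1, the adaptor kinase below the TNF receptor, rose from 2.97 and 2.86 cRPKM to 5.36 and 7.33 (1.17 ± 0.15, adjusted p = 0.011). Traf6, an adaptor of interleukin and Toll-like receptors, rose by 0.42 ± 0.10 (adjusted p = 0.049) on the log2 scale. Cyld, a deubiquitinase that limits the pathway, fell by 0.69 ± 0.17 (adjusted p = 0.048) on that scale.

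The best known inflammatory ligands were close to unread in these cultures. Of 10 ligand genes 6 passed the count filter and none was called in any comparison by edgeR, with or without the block, by DESeq2 or by limma; 1 had an unadjusted p under 0.05 in edgeR at 3 h. Tnf had 0 to 2 counts per library and Il1b 6 to 23. Of 12 receptor genes 2 rose at 3 h and none fell, with a median of 0.01 (4 higher and 2 lower with the block). Tnfrsf12a, the receptor of the cytokine TWEAK, rose from 5.27 and 6.26 cRPKM to 25.74 and 40.47 (2.57 ± 0.23, adjusted p = 0.0063). Tlr4, the endotoxin receptor, rose from 25 and 19 counts to 67 and 103 (2.28 ± 0.43, adjusted p = 0.027), a level of at most 0.26 cRPKM. Of 23 tested textbook target genes 4 rose and none fell, with a median of 0.06 (6 higher and 1 lower with the block), again beside 8.71% and 6.84% of all genes, or 18.6% each way with the block. They were Ptgs2, the inducible cyclooxygenase (4.70 ± 0.48), Gadd45b, a stress and plasticity gene (3.54 ± 0.26), Ier3, a survival gene (2.72 ± 0.50), and Vcam1, an adhesion gene (0.62 ± 0.12), with adjusted p from 0.0046 to 0.029. Ier3 stood at 2.64 and 3.01 cRPKM untreated and at 9.04 and 27.41 at 3 h, so its size rests on 1 library: the log2 change was 1.79 without 3 h replicate 2 (adjusted p = 0.023) and 3.29 without 3 h replicate 1. Those of Tlr4 and Ptgs2 also moved, to 1.69 without 3 h replicate 2 and to 5.42 without untreated replicate 2. Between 0.5 h and 3 h, Ikbkg was called lower, and Ripk1, Tnfrsf12a, Tlr4, Ptgs2, Gadd45b, Ier3 and Vcam1 were called higher, 1 and 7 of 74 against 4.87% and 6.39% of all genes.

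Without either untreated library, Ptgs2 and Gadd45b alone among these 10 pathway genes kept their 3 h calls. Without either 0.5 h library the calls of Ikbkg, Cyld, Traf6, Tlr4 and Vcam1 were lost, without 3 h replicate 1 those of Cyld and Traf6, and without 3 h replicate 2 those of Traf6 and Vcam1. The call of Traf6 was also lost with other size factors, in limma, with library totals and with no count filter, and Cyld's with library totals. For 3 h against 0.5 h, 0 of the 8 calls remained without either 0.5 h library; without either untreated library Tnfrsf12a, Ptgs2 and Gadd45b kept theirs. Ier3 also lost its call in limma (adjusted p = 0.073), and Vcam1 with library totals (0.061) and without 3 h replicate 2 (0.082).

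**Figure D4:**
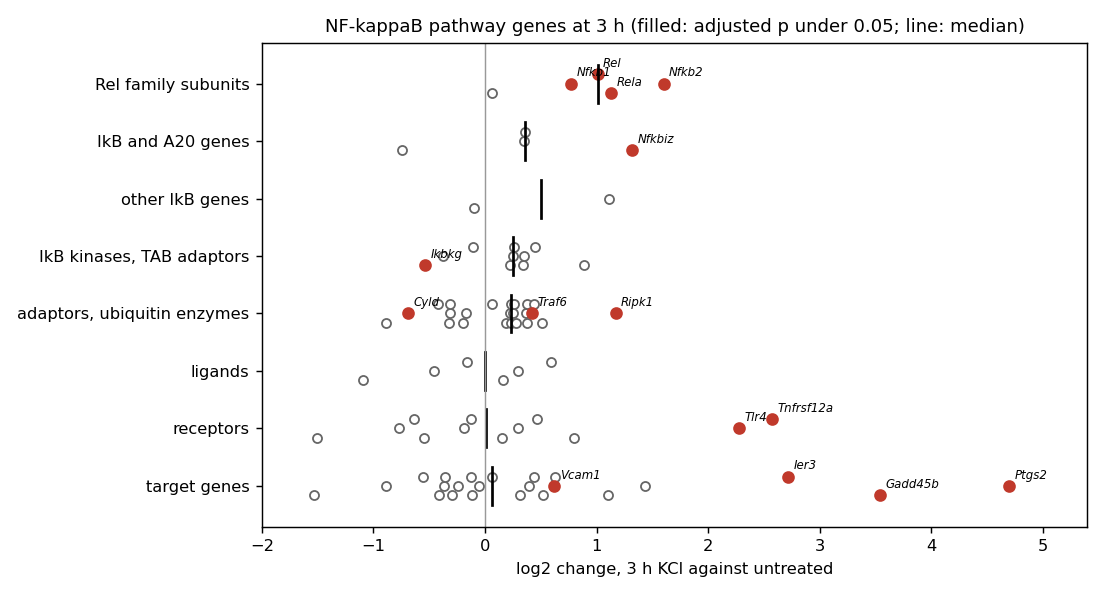
Log2 change at 3 h against untreated (horizontal axis) of every tested gene on the 2 member lists and the 6 pathway lists (rows); filled red points had an adjusted p under 0.05 and are named, open points did not pass, and the black line is the median of the list. The subunit row has 4 of its 5 points filled and a median of 1.01, while the medians of ligands, receptors and target genes lie between 0 and 0.06.

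Genes with the pattern most like each called member over the 6 libraries were found among 12140 genes as those with the smallest root mean square difference in log2(cRPKM + 0.1), relative to the untreated mean. For Nfkb1 these were Szrd1 (0.038), Dnajc1 (0.04) and Pip5k1a (0.043). Those nearest to Nfkb2 were Rhoj (0.063), Ptpn21 (0.071) and Dnajb9 (0.076), to Rel Zrsr1 (0.057), Slc19a2 (0.086) and Ehd4 (0.088), and to Rela Mob1a (0.062), Fastkd5 (0.065) and Dennd4c (0.069). Nfkbiz had no near match: its closest genes were Egr3 (0.30), Klf2 (0.31) and Btg2 (0.32), transcription regulators that respond early to stimulation. Btg2 stood at 12.35 and 10.30 cRPKM untreated, 31.31 and 34.06 at 0.5 h, and 32.46 and 29.51 at 3 h, a step by 0.5 h like that of Nfkbiz. With a pseudocount of 1, 4 of these 15 pairs were found again.

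The library kit does not mark strand, so reads of overlapping genes on opposite strands cannot be told apart. By name in a later annotation, 6.52% of the exon bases of Nfkb2 overlap Psd and 11.6% overlap AC114539.1, and 1.94% of those of Nfkbib overlap Sirt2 and 14.5% overlap Ccer2. AC114539.1 and Ccer2 have no values in the tables used here. Psd, an abundant gene, stood at 108 ± 0.74 cRPKM untreated and 82.9 ± 18 at 3 h (SD, n = 2), a difference in the direction opposite to that of Nfkb2. Sirt2 stood at 67.9 ± 5.5 and 86.5 ± 16, in the same direction as Nfkbib. Neither was called in edgeR, with log2 differences of −0.31 ± 0.19 and 0.40 ± 0.14 (SE, adjusted p = 0.29 and 0.11).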

How the data were processed

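RNA was sequenced from 6 libraries of cultured mouse hippocampal neurons (extracted with TriReagent and prepared with a TruSeq V2 kit, per the labels' protocols). The submitters' processing notes name mouse build mm9 and Bowtie; the sources used here give no version, gene annotation or handling of reads with several matches. Each deposited file lists 22667 genes (21553 with values) with an RPKM computed by the authors, named cRPKM as deposited and not defined further, and raw read counts in whole numbers, not normalized by the authors. Over 7690 genes with more than 2000 counts in every library, counts and cRPKM implied the same gene length within 0.282%. Symbols (20451 genes) came from GENCODE M21.

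Counts were tested with edgeR 4.0.16 (R 4.3.3; TMM, filterByExpr with a minimum count of 10, quasi-likelihood F test, 1 fit of all 6 libraries, group as the only term, 3 residual degrees of freedom). A call means an adjusted p under 0.05 (Benjamini-Hochberg, over all 15895 genes tested). Log2 changes and folds come from counts scaled by TMM, while cRPKM follows library totals, so cRPKM ratios can differ from the fitted folds. The TMM factors ran from 0.941 (3 h replicate 1) to 1.04 (0.5 h replicate 2). Alternatives were DESeq2 1.42.0, limma 3.58.1, other scalings, no filter, the replicate block and leaving out each library. The edgeR step was also run on simulated counts, as a check of whether set fold changes were recovered. Those counts were drawn independently for each library, without the replicate pairing given next, so that run cannot show how the pairing affects the calls. Differences between replicates 1 and 2 correlated across genes with r = 0.58 to 0.81 between groups; this pairing comes from the data, not the labels, so blocked values stand beside results whose call they change. The members and lists were chosen with earlier results of these data known. All 10 members are described. Of each list, up to 4 called genes per comparison and the 3 genes most like each called member are named.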

Additional observations from a re-analysis of the deposited data

Results flagged for a closer look

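For 3 subunit genes the effect of KCl at 3 h differed from that at 0.5 h in edgeR's test of the difference itself, which is the comparison of 3 h with 0.5 h. The log2 difference was 0.67 for Nfkb1, 1.34 for Nfkb2 and 1.01 for Rela. In each case both 3 h libraries lay above both 0.5 h libraries, as they did for 21.0% of all genes tested.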

How the results depend on the processing

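Of the 10 genes, at 0.5 h DESeq2 called 1 and the other alternatives 0. At 3 h against untreated the count of 5 became 8 with the replicate block and 0 to 4 with 1 library left out; other tools, scalings and no filter gave 4 to 7. At 3 h against 0.5 h the count of 3 became 5 in DESeq2, 6 with the replicate block and 0 to 3 with 1 library left out. Leaving out 1 library leaves 2 residual degrees of freedom and assumes that a lone library varies like the other groups. Signs turned, for values never called, only with a library left out: at 0.5 h Rel ran from −0.13 to 0.26, Relb from −0.29 to 0.16 and Tnfaip3 from −0.41 to 0.23; Relb at 3 h ran from −0.15 to 0.30 against untreated and from −0.04 to 0.37 against 0.5 h, and Nfkbiz from −0.41 to 0.22 against 0.5 h. Over all genes, the 0.5 h count of 6 became 37 in DESeq2, 13 without a filter, 13 with the block and 0 to 6 with 1 library left out. The 3 h count of 2472 became 4157 in DESeq2, 5918 with the block and 38 to 3739 with 1 library left out. The count of 1789 between the times became 3548, 4961 and 0 to 2915. The cause was not tested.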

Other observations

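Replicate number moved with most of these genes. Of the 9 genes tested, 7 (Nfkb1, Nfkb2, Relb, Nfkbia, Nfkbib, Nfkbiz and Tnfaip3) were higher in replicate 2 than in replicate 1 in all 3 groups, as were 35.0% of all genes tested. For Relb the ratio of replicate 2 to replicate 1 was 1.39 untreated, 1.36 at 0.5 h and 1.36 at 3 h, and for Tnfaip3 it was 1.59, 1.36 and 1.43. Rela was the other way in untreated and 0.5 h libraries (0.958 and 0.955) and stood at 1.69 at 3 h. Rel stood at 1.33, 1.23 and 0.878.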
